A study of Ovis aries with 12 samples.

Results

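The comparison of the near-term with the mid-gestation fetal heart covered 6 of the 12 arrays of the series and 3091 of the 3098 miRNA probes on the array. The arrays were chosen by age label alone, 3 at F140 and 3 at F91, and no measured value entered the choice. Each array had received total RNA from the left ventricle of 1 untreated Merino sheep fetus, which the labels call a control. The labels give the older fetuses as 141 days of gestation, and the younger ones as 91 days in the titles and 90 days in the stage field. F91 replicate 3 was male and the other 5 fetuses were female. F140 replicate 2 was a twin and the other 5 were singletons. The tissue was a piece of whole ventricular wall, in which fewer cells of a type and less RNA per cell cannot be told apart. The 6 arrays of lambs (3 at P5 and 3 at P173) entered through the estimate of the spread between animals. They also entered the mean of each probe over all arrays, by which bright probes were chosen. The GC trend of an array was fitted on the bright probes, as log2 deviations from the mean of each probe.

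miRNA are short RNA that pair with messenger RNA, mainly through the seed, which is bases 2 to 8 from the 5′ end, and lower the amount or the translation of the paired message. miRNA with the same seed share many targets, and miRNA cut from the same primary transcript are made together but can be kept or lost separately. In sheep the interval between these ages is when heart muscle cells change from dividing cells with a single nucleus to mostly non-dividing cells with a pair of nuclei, a change that in rodents falls after birth. The question of the comparison was which miRNA of the ventricle differ across this interval.

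The sequences below are the targets of the array's probes, written in the files with the scanner data, each 5′ to 3′ with positions 2 to 8 of the entry in capitals. The first set is shown because its members share a seed and did not change in the same direction. miR-15a, miR-15b, miR-16b, miR-195 and miR-497 form the miR-15 family, and miR-424-5p and its rodent form miR-322-5p carry the same seed. The miR-195 entry is a length and base variant of the bovine sequence, the only form of miR-195 used here.
miR-15a: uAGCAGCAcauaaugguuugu
miR-15b: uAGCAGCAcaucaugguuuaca
miR-16b: uAGCAGCAcguaaauauugg
miR-195: uAGCAGCAcagaaauguugg
miR-497: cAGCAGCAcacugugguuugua
miR-424-5p: cAGCAGCAauucauguuuuga
miR-322-5p: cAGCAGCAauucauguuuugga

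The second set holds the miRNA of the miR-17-92 transcript that averaged at least 100 units at an age, shown because they carry 3 different seeds.
miR-17-5p: cAAAGUGCuuacagugcaggua
miR-20a: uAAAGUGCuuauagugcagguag
miR-19b: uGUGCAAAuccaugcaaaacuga
miR-92a: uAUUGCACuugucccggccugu

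The third set holds members with large rises. miR-208b and miR-499 are coded within myosin heavy chain genes, and miR-208b is shown by a bovine variant and by the rat sequence, which start 1 base apart. miR-126 is an endothelial hairpin, whose 5′ arm is shown by the bovine entry and by a murine entry lengthened at its 5′ end, so that the capitals of the latter lie outside the usual seed. miR-335 lies within the imprinted gene MEST, and miR-450b lies on the transcript that also holds miR-424.
miR-208b, bovine variant: uAAGACGAacaaaagguu
miR-208b-3p, rat: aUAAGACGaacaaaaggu
miR-499: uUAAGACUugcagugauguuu
miR-126a-5p, murine, lengthened: gAUCAUUAuuacuuuugguacgcg
miR-126-5p, bovine: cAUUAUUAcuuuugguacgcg
miR-126-3p: cGUACCGUgaguaauaaugcg
miR-335: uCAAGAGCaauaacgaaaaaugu
miR-450b: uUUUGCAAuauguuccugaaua
miR-101: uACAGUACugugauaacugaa

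The fourth set holds members that fell. The 3 miR-181 entries share a seed and fell together, and the miR-3431 entries are a mature bovine sequence and sequences predicted from its hairpin.
miR-181a: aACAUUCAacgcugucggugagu
miR-181b-5p: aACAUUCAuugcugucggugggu
miR-181c: aACAUUCAaccugucggugaguuu
miR-3431: cCUCAGUCagccuuguggaugu
mir-3431-p3: cAUCUAGAggacugacuga
mir-3431-p5: aUCUAGAGgacugacugaaa
miR-214: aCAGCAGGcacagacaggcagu
miR-204: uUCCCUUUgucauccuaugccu

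Levels are the authors' normalised values in arbitrary units on a linear scale, and they may be compared between arrays for 1 probe but not between probes. The fetal arrays also differed in measures of the scans. The number of probes with 32 units or more overlapped between the ages, with at least 906 on each F91 array and 970 to 1064 on the F140 arrays. Before normalisation the 90th percentile of the scanned probes was 328.8 to 821 units at F91 and 874 to 1499 at F140, without overlap. Over the 775 bright probes, those averaging 100 units or more over all arrays, pairs of F91 arrays correlated at 0.709 to 0.912, pairs of F140 arrays at 0.806 to 0.905, and pairs of unlike age at 0.497 to 0.810. Levels also followed base composition. Per 10 % of GC content, this log2 deviation of the bright probes changed by 0.18 ± 0.36 at F91 (SD, n = 3) and by -0.32 ± 0.15 at F140. Individual slopes were -0.17 to 0.55 and -0.47 to -0.17 (exact two-sided permutation p = 0.10, the smallest that 3 against 3 can give). The fit was therefore also run after removal of the GC trend of each array. The part of scan brightness in the results was not tested.

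More probes rose than fell, and most of the excess lay among dim ones. Levels were tested as log2(units + 0.1) with limma, and a probe was called where limma's Benjamini-Hochberg adjusted p, taken over the 3091 probes, was at most 0.05; every adjusted p given is of this kind. At F140, 171 probes (5.53 %) differed from F91, 119 of them (3.85 %) higher and 52 (1.68 %) lower. Of the 775 bright probes, 68 (8.77 %) were higher and 45 (5.81 %) lower, and of the other 2316, 51 were higher and 7 lower. With each name represented by 1 probe, 61 of 1283 names (4.75 %) were higher and 33 (2.57 %) lower. These are the shares of all names against which the counts of listed miRNA below stand. Of the called names, 34 of the rises and all 33 falls reached a mean of 100 units at an age. On all F91 arrays, 34 of the 61 rises were below 32 units. The median log2 change of all probes was 0.07. The arrays of the 2 ages did not overlap for 352 probes higher at F140 (11.4 %) and for 221 lower (7.15 %). Same-numbered F91 and F140 arrays deviated from their age means alike, and with that number as a block in the fit over all arrays 294 probes were called, 187 higher and 107 lower. After removal of the GC trend, 102 probes were higher (3.30 %) and 55 lower (1.78 %), and 89 of the 119 and 31 of the 52 were the same probes. With the 2 fetal ages fitted alone, only 9 probes were called, and 443 had an unadjusted p of at most 0.05. Adding the block to that smaller fit left limma with 0 calls, with 531 probes at an unadjusted p of at most 0.05, and removing the GC trend besides gave 93 calls, 58 higher and 35 lower.

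**Figure D1:**
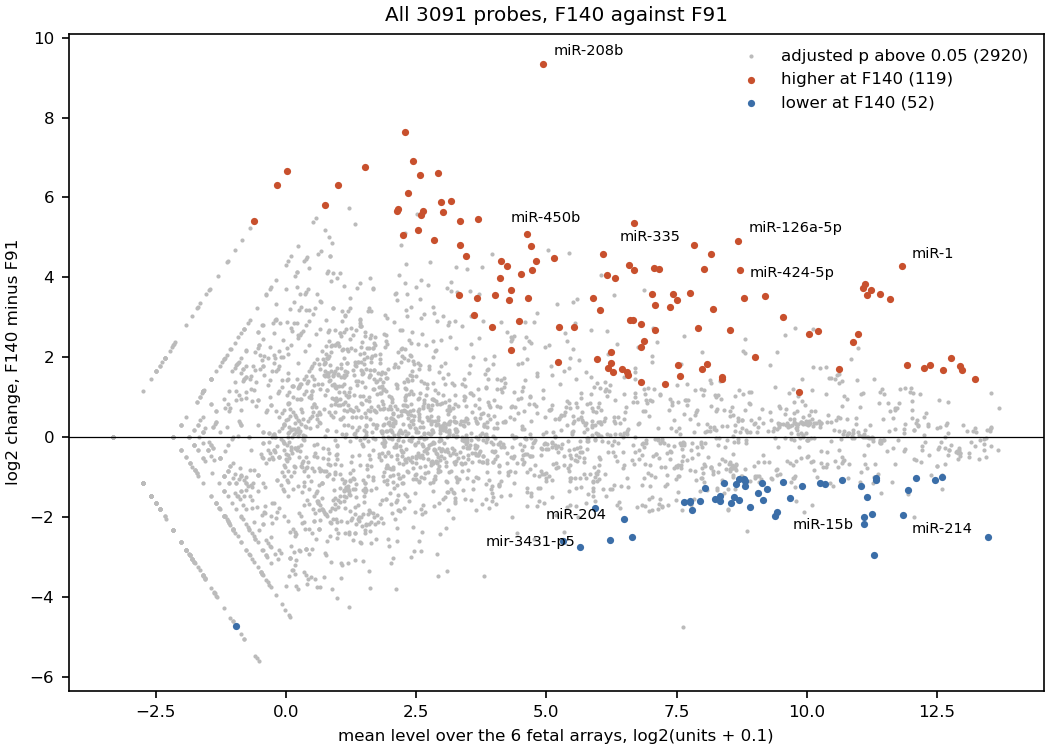
Log2 change from F91 to F140 of each of the 3091 probes (vertical axis) against its mean level over the 6 fetal arrays in log2(units + 0.1) (horizontal axis). The 119 probes called higher reached down to dim levels and the 52 called lower lay mostly at bright ones; the slanted rows of points at the left are probes of a few units, whose fold changes are not measured.

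The probes called higher and those called lower differed in their levels and bases. Of the 119 higher, 52 read below 32 units on all F91 arrays, the level treated here as not above background, and 80 reached a mean of at least 100 units at F140. Of the 52 lower, 50 averaged 100 units or more at F91 and 3 read below 32 units on all F140 arrays. The median GC content was 38.1 % for the targets of the probes called higher and 50.0 % for those called lower, against 47.4 % over all probes. F91 replicate 1 was the highest of the F91 arrays for 72 of the 119, so on these probes it lay nearest to the F140 arrays. Leaving out that array raised the number of calls to 304, while leaving out F91 replicate 2 or 3 gave 89 or 97, and leaving out F140 replicate 1, 2 or 3 gave 50, 80 or 89.

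The 12 largest rises among named miRNA with at least 100 units at F140 were miR-208b, miR-450b, miR-126a-5p, miR-335, mir-2284f-p3, miR-1-3p, miR-6119-5p, miR-101, miR-1, miR-322-5p, miR-10b and miR-424-5p. They include miRNA of heart muscle, of the endothelium and of the miR-424 transcript. Only called miRNA without overlap between the arrays of the 2 ages were eligible, for rises and falls alike. The log2 changes of the 12 rises ran from 4.17 to 9.35, and 6 of the 12 were below 32 units on all F91 arrays. All 12 also passed with the replicate block and 11 of 12 after removal of the GC trend, the exception being mir-2284f-p3 (adjusted p = 0.058), a bovine entry of a large ruminant family. Without F140 replicate 1 the calls of mir-2284f-p3 and miR-10b ended (adjusted p = 0.097 and 0.064), and without F91 replicate 2 that of miR-335 did (0.056). The other 9 held without any 1 of the 6 fetal arrays. The 12 rest on fewer miRNA than on names, since miR-1-3p is a variant of miR-1 and miR-322-5p is close to miR-424-5p in sequence.

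**Figure D2:**
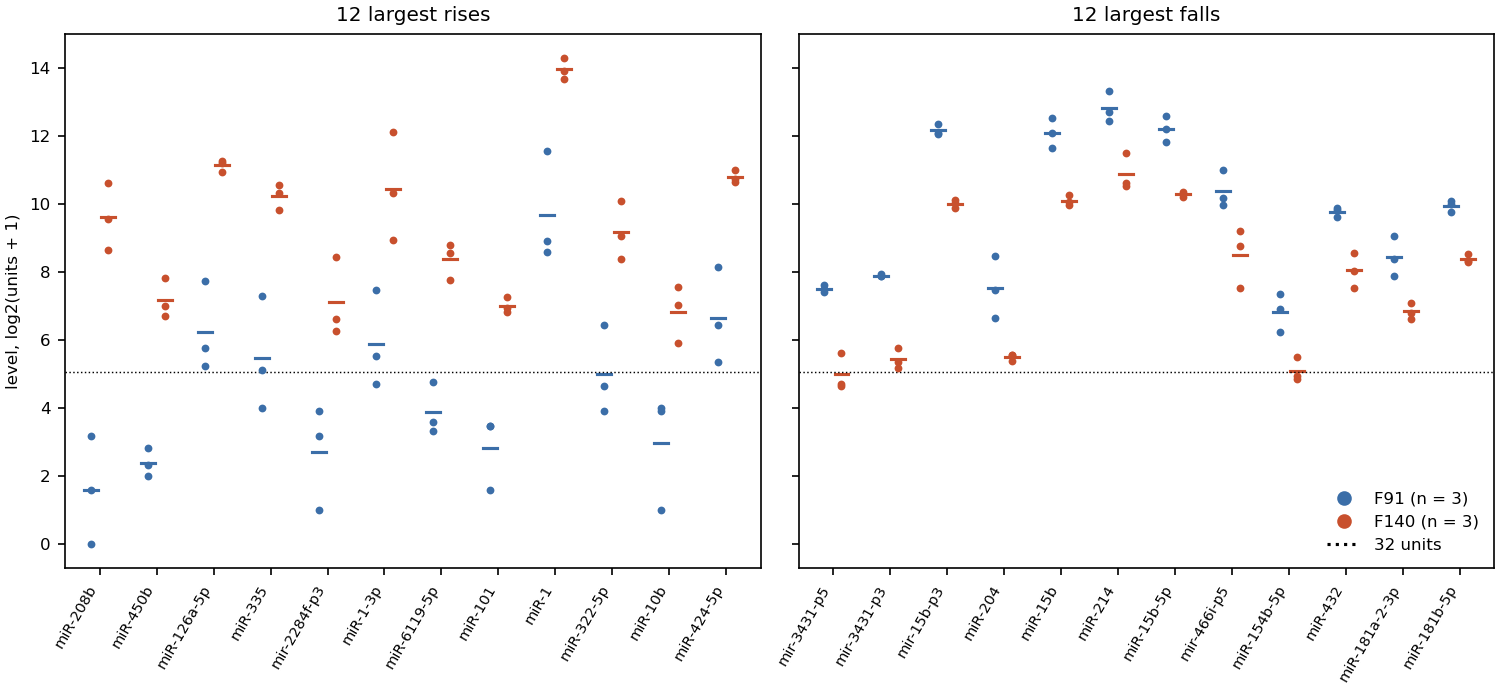
Levels of the 12 largest rises and the 12 largest falls on the 3 arrays of each age, as log2(units + 1), with a bar at the mean of each age and a dotted line at 32 units. The 24 were chosen among miRNA whose F91 and F140 points do not overlap, and 6 of the rises start below the line.

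miR-208b and miR-499, which sit in introns of genes for myosin heavy chains, rose with miR-1, a miRNA that restrains the growth and division of muscle cells. miR-1 read 2992, 480 and 384 units on F91 replicates 1, 2 and 3 and 15364, 13055 and 20106 units on the F140 replicates. The lowest F140 array was well above the highest F91 array, and the means differed 12.6-fold (log2 change 4.28 ± 0.68 standard error, adjusted p = 0.0054). miR-499 read 2360, 456 and 274 units at F91 and 9350, 7320 and 9231 units at F140, a change of 3.69 ± 0.67 in log2 (adjusted p = 0.0083). In both miRNA F91 replicate 1 was the highest of its age by a wide margin, and both calls held without any 1 fetal array.

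miR-208b was at the floor of the array at F91. Its bright bovine variant read 8, 0 and 2 units at F91 and 1572, 399 and 750 units at F140, which is at least 24.3-fold higher on the geometric mean against 32 units (adjusted p = 0.0013). On the probe for the exact rat sequence the levels were 2, 0 and 5 units at F91 and 64, 73 and 48 at F140, at least 1.90-fold more (adjusted p = 0.044). The call of the variant held without any 1 fetal array and without the GC trend. That of the rat sequence passed with the block and missed the threshold after removal of the GC trend (adjusted p = 0.088), and it ended in 17 of 30 alternatives in all. miR-208a, of the other cardiac myosin gene, read at most 27 units on any fetal array, and miR-206, a miRNA of skeletal muscle, at most 2.

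miR-133a and miR-133b, which are made from transcripts shared with miR-1 and miR-206, gave no call. miR-133a, which limits the division of heart muscle cells in mice and zebrafish, read 4241, 7963 and 4854 units at F91 and 5921, 7319 and 6648 units at F140. The ages overlapped, and the log2 change was 0.27 ± 0.25 (adjusted p = 0.69). miR-133b lay between 8343 and 11764 units on all 6 arrays, with a change of -0.07 ± 0.22. Of the 7 muscle miRNA, 3 rose, none fell, 2 did not pass, and 2 were below 32 units on all 6 arrays. Their summed level was 16635 to 20461 units at F91 and 37812 to 47824 at F140. The rise of this sum lay mostly in miR-1 and miR-499. Such sums, here and below, add units of unlike probes and give most weight to the brightest. They do not measure the amount of a cell type.

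The miR-424 transcript, which is X-linked in human and mouse and carries miR-424, miR-503, miR-542 and miR-450, had 3 of 6 measured miRNA called higher and none lower. miR-424-5p blocks cell cycle genes in several cell types. It read 280, 85 and 40 units at F91 and 1696, 1613 and 2054 at F140, 13.2-fold higher in the mean (log2 change 4.17 ± 0.60, adjusted p = 0.0027, and 0.0016 after removal of the GC trend). Its murine form miR-322-5p moved with it, from 85, 14 and 24 units to 1090, 330 and 537 (4.24 ± 0.70). The 2 sequences differ in length at the 3′ end, so these probes may read the same RNA.

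The other miRNA of the transcript were below background or dim at F91. miR-450b read 4, 3 and 6 units at F91 and averaged 153 ± 65.6 (SD, n = 3) at F140, at least 4.51-fold more (adjusted p = 0.0079). miR-542-3p went from 5, 3 and 13 units to 78, 61 and 56, at least 2.01-fold more (adjusted p = 0.028), a call that missed the threshold after removal of the GC trend and without 4 of the 6 fetal arrays taken 1 at a time (adjusted p up to 0.14). miR-450a read 67, 11 and 2 units at F91 and 70 to 173 at F140, and passed with the block but not without (adjusted p = 0.12 without it and 0.036 with it). miR-503-5p and the 5′ arm of miR-542 moved by 1.0 ± 0.61 and 0.85 ± 0.56 in log2 and did not pass (adjusted p = 0.48 and 0.51).

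Members of the miR-15 family, which in rodents hold back the division of heart muscle cells around birth, changed in both directions. miR-15b fell from 3190, 5880 and 4318 units to 1000, 1229 and 1074, a log2 change of -1.98 ± 0.31 (adjusted p = 0.0046). miR-15a rose from 189, 50 and 16 units to 610, 502 and 435 (3.26 ± 0.75, adjusted p = 0.024). The miR-195 variant rose from 2, 9 and 4 units to 98, 67 and 88, at least 2.61-fold (adjusted p = 0.0055). For none of these 3 did the ages overlap. The calls of miR-15b and miR-195 held without any 1 fetal array, whereas that of miR-15a held only when F91 replicate 1 was the array left out (adjusted p up to 0.097 otherwise).

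The remaining members of the family gave no call. miR-16b read 11126, 10075 and 10343 units at F91 and 7665, 6273 and 8506 at F140; its arrays did not overlap either, yet the change of -0.50 ± 0.29 did not pass (adjusted p = 0.43, and 0.052 after removal of the GC trend). None of the 10 miR-16 probes on the array was called, and 2 were after removal of the GC trend. miR-497 read 5, 13 and 2 units at F91 and 17, 35 and 30 at F140, and passed with the block but not without (adjusted p = 0.071 without it and 0.032 with it). Of the 5 family members, 2 rose and 1 fell, and the seed AGCAGCA was the only one among the exact sequences of bright probes on which calls went in both directions. The difference between the changes of miR-15a and miR-15b was not tested.

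**Figure D3:**
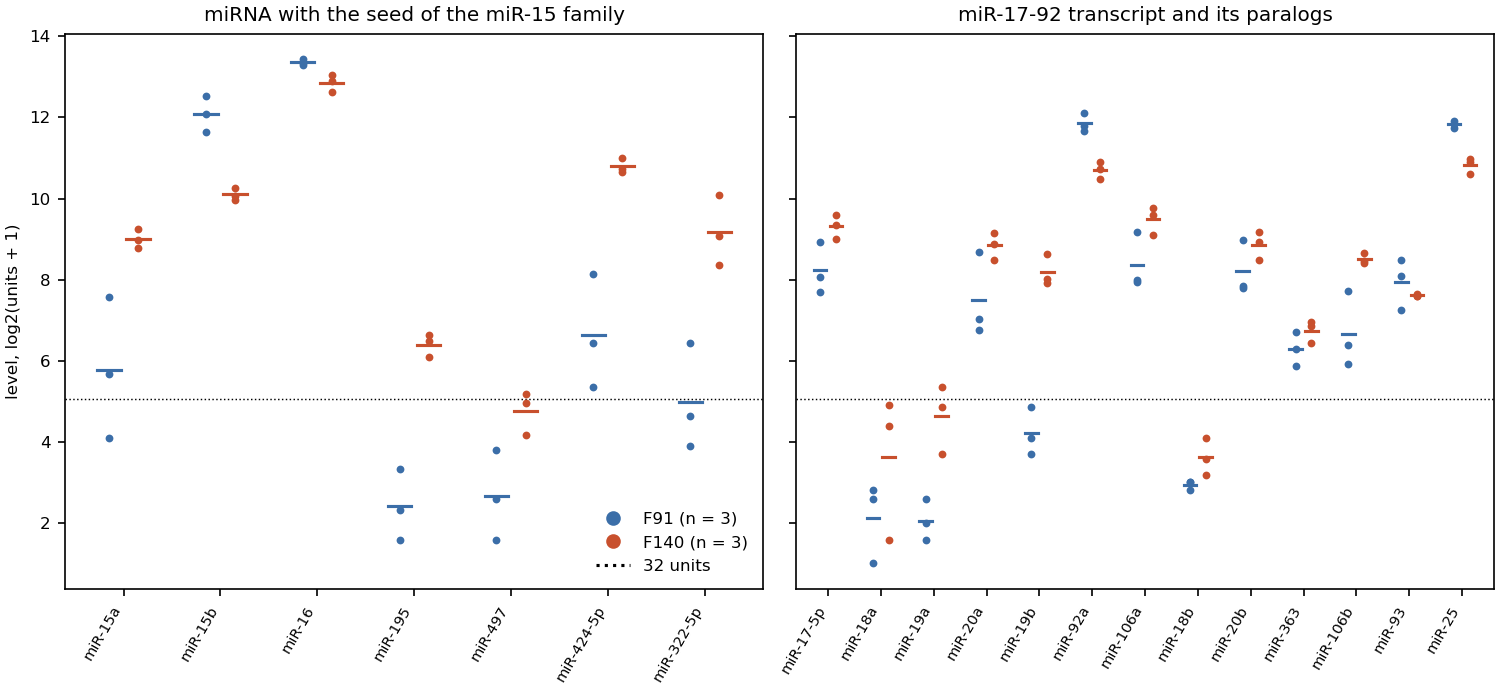
Levels, as log2(units + 1), of miRNA with the seed of the miR-15 family (left) and of the miR-17-92 transcript with its paralogs (right), with a point for each of the 3 arrays of an age, a bar at its mean and a dotted line at 32 units. On the left miR-15b fell while miR-15a, miR-195, miR-424-5p and miR-322-5p rose; on the right only miR-19b was called higher and only miR-25 lower.

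The miR-17-92 transcript, which drives proliferation and is abundant in dividing cells, had 1 of 6 measured miRNA called, miR-19b. It rose from 28, 12 and 16 units at F91 to 397, 258 and 242 at F140, at least 9.11-fold (adjusted p = 0.0013), and its call held without any 1 fetal array. miR-92a read 3236, 4430 and 3530 units at F91 and 1427, 1899 and 1701 at F140, without overlap, but passed with the block but not without (log2 change -1.15 ± 0.32, adjusted p = 0.055 without it and 0.032 with it). Of 5 miR-92 probes with at least 100 units, this one included, 4 were called lower. Some of these 4 are entries of miR-92b, which is not among the 6 miRNA of this transcript. miR-17-5p and miR-20a, which share a seed, read higher by 1.08 ± 0.39 and 1.36 ± 0.53 in log2, with overlapping arrays for miR-20a. Neither of these probes passed (adjusted p = 0.15 and 0.18). A platypus variant of miR-20a-5p was called higher (2.42 ± 0.53, adjusted p = 0.019, and 0.035 after removal of the GC trend). miR-18a and miR-19a read at most 40 units on any fetal array. The differences between the changes of these miRNA were not tested.

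Of the 7 measured paralogs on the miR-106a-363 and miR-106b-25 transcripts, only miR-25 was called. It fell from 3423, 3854 and 3672 units to 1555, 1900 and 2009 (-1.01 ± 0.23, adjusted p = 0.024), although the call held only when F91 replicate 1 was left out, with adjusted p up to 0.12 without the others. miR-106b, from the same transcript as miR-25, averaged 117 ± 80.0 units (SD, n = 3) at F91 and read 402, 348 and 339 at F140 (1.85 ± 0.57) and passed with the block but not without (adjusted p = 0.084 without it and 0.044 with it). miR-93, which lies between them, did not pass at -0.33 ± 0.38. The members of this transcript thus spanned fitted changes of both signs, and the differences between them were not tested.

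The endothelial hairpin miR-126, which supports vessel growth, was read by both of its arms. miR-126-3p rose from 4211, 2239 and 923 units to 7271, 6044 and 8703 (1.82 ± 0.44, adjusted p = 0.029). The lengthened 5′ arm probe rose from 210, 53 and 37 units to 2445, 1984 and 2346, 22.6-fold in the mean (4.92 ± 0.62, adjusted p = 0.0013), and its call held without any 1 fetal array. The call of miR-126-3p held only without F91 replicate 1, and adjusted p reached 0.10 without another array. The exact bovine 5′ arm read at most 13 units on any of the 6 arrays, so the large change rests on the lengthened entry alone.

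Of 5 miRNA known from fibroblasts, 1 rose and 1 fell, and their median log2 change was 1.46. The largest fitted rise of the 5, 4.62 in log2 for miR-199b, was not called. miR-21, which rises with matrix deposition in the injured heart, went from 258, 74 and 47 units to 1043, 765 and 891 (3.21 ± 0.61, adjusted p = 0.0095), and held without any 1 fetal array. miR-214, which is made from the same transcript as miR-199a, fell from 5539, 6658 and 10228 units to 1491, 1579 and 2893 (-1.93 ± 0.31, adjusted p = 0.0055), and held as well. miR-199a-5p, which in rodents promotes the division of heart muscle cells, averaged 315 units at F91, with 533 and 270 on replicates 1 and 2, and 560.3 ± 49.1 (SD, n = 3) at F140. Its ages overlapped (1.03 ± 0.45, adjusted p = 0.26), as did those of miR-199a-3p (1.46 ± 0.56, adjusted p = 0.17). Both arms of miR-590, another miRNA that promotes division in rodents, read 0 on all fetal arrays except F140 replicate 2, with 14 and 13 units. The summed level of the fibroblast miRNA was 7781 to 10816 units at F91 and 4957 to 7684 at F140. miR-214 was the brightest part of this sum at F91.

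The miR-29 family, a brake on collagen and other extracellular matrix proteins, was dim at both ages. miR-29b read 0, 5 and 1 units at F91 and 35, 48 and 12 at F140, and miR-29d 1, 9 and 10 units at F91 and 57, 64 and 46 at F140. Both were called higher (adjusted p = 0.038 and 0.012), miR-29d by at least 1.73-fold. miR-29a, at 14, 9 and 14 against 67, 42 and 30 units, passed with the block but not without (adjusted p = 0.058 without it and 0.036 with it). After removal of the GC trend none of the 3 passed (adjusted p = 0.074 to 0.11). The call of miR-29d ended without F140 replicate 1 (adjusted p = 0.052), and that of miR-29b ended without any array but F91 replicate 2. Among variant entries of miR-29a, an ovine one rose at least 1.32-fold and a platypus one at least 1.30-fold (adjusted p = 0.019 and 0.012). After removal of the GC trend the ovine variant missed the threshold (adjusted p = 0.068) and the platypus one passed (0.036).

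Of 3 red cell miRNA and 6 white cell miRNA, 1 of each list rose and none fell on the probe used for each name. On the brightest probe of each name, all 3 red cell miRNA were called higher. For miR-144 of red cells, 2 of 9 probes were called higher. None of the 9 averaged 100 units at an age, and none was called after removal of the GC trend. miR-486, a red cell miRNA, rose from 649, 596 and 623 units to a mean of 1371 ± 161 (log2 change 1.13 ± 0.26, adjusted p = 0.024, and 0.0049 after removal of the GC trend). miR-451, the most abundant of these in red cells, averaged 664 ± 710 units (SD, n = 3) at F91 and read 2235, 3324 and 3044 at F140 on its exact probe, without overlap but with a change that did not pass (2.71 ± 0.92, adjusted p = 0.12), while 5 of its 11 probes were called higher. miR-142-3p, a miRNA of white cells, read 0, 12 and 3 units against a mean of 76.7 ± 50.9 (SD, n = 3), at least 2.08-fold more (adjusted p = 0.036, and 0.075 after removal of the GC trend). The summed level of 3 red cell miRNA was 769 to 2123 units at F91 and 3721 to 4577 at F140, and that of 6 white cell miRNA 237 to 345 and 360 to 604. miR-155 and miR-150, other white cell miRNA, changed by -0.19 ± 0.43 and 0.75 ± 0.37 and did not pass, and miR-223 of neutrophils stayed below 32 units on all arrays. The calls of miR-486 and miR-142-3p each ended without 4 of the 6 fetal arrays taken 1 at a time (adjusted p up to 0.15). The part of blood in the other results was not tested.

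Smooth muscle miRNA gave no call. miR-145, which keeps smooth muscle cells differentiated, read 3711, 3421 and 3486 units at F91 and 2712, 3295 and 2819 at F140 (-0.27 ± 0.22, adjusted p = 0.63), and miR-143 of the same transcript changed by 0.85 ± 0.38 (adjusted p = 0.27). Their summed level overlapped between ages, at 4718 to 7358 and 6271 to 7431 units. Markers of other organs had sums of 57 to 71 and 112 to 156 units for 3 liver miRNA and of at most 11 units for 3 pancreas miRNA, all 3 of which stayed below 32 units. The sum of 4 brain miRNA was 222 to 392 units at F91 and 300 to 410 at F140, nearly all of it from miR-128, since the other 3 stayed below 32 units on all 6 arrays.

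Of 5 miRNA in the miR-23/27/24 clusters, 1 rose and none fell. miR-27b, which with miR-27a is made beside miR-23 and miR-24, rose from 1214, 855 and 612 units to 3123, 2695 and 2705 (1.72 ± 0.34, adjusted p = 0.012, and 0.060 without F140 replicate 1). miR-27a and miR-24 changed by 1.74 ± 0.49 and 0.86 ± 0.25 and passed with the block and also after removal of the GC trend, but not without either adjustment (adjusted p = 0.053 and 0.065). miR-23a and miR-23b, from the same 2 transcripts, differed by 0.06 ± 0.23 and 0.02 ± 0.22 in log2. After removal of the GC trend 3 of the 5 were called, all higher.

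miR-101, a repressor of the histone methyltransferase EZH2, was below background at F91 with 10, 10 and 2 units and averaged 129 ± 21 (SD, n = 3) at F140, at least 4.01-fold more (adjusted p = 0.0059). Its call held without any 1 fetal array. miR-26a, which also targets EZH2, lay between 9992 and 14959 units on all 6 arrays (0.24 ± 0.25). miR-26b read 3359, 818 and 289 units against 5018, 3757 and 4480, and passed with the block but not without (adjusted p = 0.078 without it and 0.025 with it). miR-26b and miR-92 had been references for the study's PCR together with SNORD61, selected there for stable expression across samples. On these arrays neither the miR-26b nor the miR-92a probe passed without the block. Other probes did, a hamster entry of miR-26b-5p higher (2.60 ± 0.65, adjusted p = 0.032) and a lengthened entry of miR-92a lower (-1.06 ± 0.25, adjusted p = 0.026).

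miR-335, from the imprinted MEST gene, rose from 157, 34 and 15 units to 912, 1285 and 1519 (4.81 ± 0.97, adjusted p = 0.012). miR-374a, an X-linked miRNA, rose from 67, 13 and 9 units to 643, 173 and 292 (4.0 ± 0.73, adjusted p = 0.0083), while miR-374b beside it changed by 0.91 ± 0.61 and did not pass. In both, every F140 array was above every F91 array. miR-22-3p, which promotes growth of heart muscle cells in mice, rose from 204, 148 and 97 units to 491, 482 and 565 (1.84 ± 0.35, adjusted p = 0.0095). The calls of miR-374a and miR-22-3p held without any 1 fetal array. The probe used for 22-5p, the other arm of miR-22, passed with the block but not without (adjusted p = 0.10 without it and 0.027 with it). A platypus variant of 22-5p was called higher without the block, at least 2.23-fold (adjusted p = 0.024, and 0.034 after removal of the GC trend).

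miR-10a and miR-10b, which lie in the Hox clusters, were both below background at F91. miR-10b read 14, 1 and 15 units against 189, 59 and 129, at least 3.53-fold more (adjusted p = 0.012), and miR-10a 0, 3 and 7 units against 109, 15 and 38, at least 1.24-fold more (adjusted p = 0.039). miR-301a read 4, 0 and 0 units against 102, 173 and 18, at least 2.14-fold more (adjusted p = 0.029), and miR-34a, which promotes ageing of the heart in mice, 6, 11 and 1 against 40, 22 and 50, at least 1.11-fold more (adjusted p = 0.038). The F140 arrays of miR-10a and miR-301a differed several-fold among themselves. The calls of miR-10a, miR-301a and miR-34a each ended without at least 4 of the 6 fetal arrays taken 1 at a time (adjusted p up to 0.18). miR-196a and miR-196b, the other Hox miRNA, read at most 9 units.

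The 12 largest falls were mir-3431-p5, mir-3431-p3, mir-15b-p3, miR-204, miR-15b, miR-214, miR-15b-5p, mir-466i-p5, miR-154b-5p, miR-432, miR-181a-2-3p and miR-181b-5p. Their log2 changes ran from -2.56 to -1.57, all smaller in size than the 12 largest rises. They rest on fewer miRNA than on names, since 3 are entries of miR-15b and 2 come from the miR-3431 hairpin. All 12 passed with the replicate block and 11 of 12 after removal of the GC trend, the exception being miR-181a-2-3p (adjusted p = 0.10). mir-3431-p3, the 3 miR-15b entries and miR-214 kept their calls without any 1 of the 6 fetal arrays. mir-466i-p5, from a large family of repeated hairpins known in mice, read 995, 1149 and 2035 units against 438, 184 and 589 (-1.87 ± 0.44, adjusted p = 0.025), and ended without 4 of the 6 taken 1 at a time. Without F140 replicate 1, 5 of the 12 falls and 10 of the 12 rises were still called.

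miR-3431, a miRNA known from cattle, fell on most of its probes. mir-3431-p3 read 233, 235 and 243 units at F91 and 40, 53 and 35 at F140, 5.55-fold lower in the mean (-2.49 ± 0.43, adjusted p = 0.0064). mir-3431-p5 read 180, 196 and 170 units against 24, 48 and 25 (-2.56 ± 0.50, adjusted p = 0.010, and 0.052 without F140 replicate 1). The F91 replicates of both lay close together. Of 16 probes for this hairpin 13 were called lower and none higher, 12 of them among 13 with at least 100 units at an age, with changes of -2.73 to -1.47. Only 5 of the 16 were called after removal of the GC trend. These probes overlap in sequence and are not independent measurements.

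miR-204, which is abundant in the eye, fell from a mean of 210 ± 131 units (SD, n = 3) to 44.3 ± 2.89, with 355, 177 and 99 units at F91 (-2.05 ± 0.51, adjusted p = 0.032). Its call ended without any array but F91 replicate 3 (adjusted p up to 0.10). miR-211, which shares its seed, read 337, 228 and 115 units against 53, 53 and 91, without overlap, and passed with the block (adjusted p = 0.046) and after removal of the GC trend (0.047) but not without either adjustment (0.064). For both miRNA F91 replicate 1 was the highest of the 6 arrays.

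All 3 measured members of the miR-181 family, which acts on mitochondrial genes in the heart and on blood cell development, were called lower. miR-181a fell from 4223, 6567 and 8635 units to 2231, 2778 and 2517 (-1.31 ± 0.29, adjusted p = 0.019). miR-181b-5p fell from 1015, 873 and 1089 units to 318, 313 and 368 (-1.57 ± 0.33, adjusted p = 0.016), and miR-181c from 2632, 3370 and 3701 to 1378, 1517 and 1250 (-1.22 ± 0.25, adjusted p = 0.016). The ages were apart on every array. The 3 calls held with the block, after removal of the GC trend, and with the 2 ages alone once block and GC trend were both included. Each of the 3 ended without F140 replicate 1 (adjusted p up to 0.097), among other arrays. Of all 15 miR-181 probes 6 were called, all lower.

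The miR-320 family, made without the enzyme Drosha, fell by a similar amount. miR-320a read 724, 969 and 839 units at F91 and 312, 423 and 425 at F140 (-1.13 ± 0.27, adjusted p = 0.026), and miR-320c, miR-320d and miR-320e were called lower by 1.04 to 1.18 in log2 (adjusted p = 0.032 to 0.044). miR-320b changed by -1.01 ± 0.31 and passed with the block but not without (adjusted p = 0.078 without it and 0.025 with it). After removal of the GC trend 2 of the 5 passed, and each of the 4 calls held only without F91 replicate 1 among the single fetal arrays (adjusted p up to 0.17). The probes of this family differ by few bases and may read the same RNA.

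miR-125a and miR-99b, which are made from the same transcript, both fell. miR-125a read 6952, 7710 and 10150 units at F91 and 3505, 3227 and 5206 at F140 (-1.07 ± 0.26, adjusted p = 0.029), and the miR-99b variant 837, 1009 and 982 against 416, 386 and 360 (-1.28 ± 0.29, adjusted p = 0.023, and 0.10 after removal of the GC trend). The seed of the miR-99b variant reads ACCCAUA, where miR-99a and miR-100 carry ACCCGUA. The exact bovine entry mir-99b-p5, which carries ACCCGUA, was also called lower (-1.12 ± 0.27, adjusted p = 0.026). Its call ended after removal of the GC trend (adjusted p = 0.57). miR-99a, miR-100 and miR-125b, the last with the seed of miR-125a, changed by 0.72 ± 0.27, 0.47 ± 0.33 and -0.34 ± 0.23 and were not called. The calls of miR-125a and of the miR-99b variant each ended without at least 4 of the 6 fetal arrays taken 1 at a time (adjusted p up to 0.14).

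The imprinted region of ovine chromosome 18, between the genes DLK1 and DIO3, codes for a large group of miRNA that are active before birth. Of 109 measured miRNA from 54 hairpins there, 40 reached 32 units and 23 a mean of 100 units at an age. Calls were few and in both directions, 3 higher and 3 lower. That is 2.75 % and 2.75 % of the 109, against 4.75 % and 2.57 % of all names. Among the 23 with at least 100 units, the fitted change was above 0 for 8 and below 0 for 15, with a median of -0.68, while the median over all 109 was -0.22. The median GC content was 37.2 % for the 8 and 43.5 % for the 15. After removal of the GC trend 1 miRNA of the region was called higher and 6 lower, and with the block 5 higher and 7 lower.

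Falls in the region included miRNA on the antisense side of the imprinted gene RTL1. miR-432 read 783, 951 and 901 units at F91 and a mean of 274 ± 96.5 (SD, n = 3) at F140, 3.20-fold lower (-1.73 ± 0.42, adjusted p = 0.027). miR-127, which lies next to it and represses RTL1 in mice, fell from 1340, 1312 and 1799 units to 681, 471 and 780 (-1.22 ± 0.33, adjusted p = 0.047, and 0.16 after removal of the GC trend). miR-154b-5p, from the far end of the cluster, read 74, 162 and 120 units against 30, 28 and 44 (-1.76 ± 0.48, adjusted p = 0.048). For all 3 the ages were apart, but none of the 3 calls held without F140 replicate 1 or 2 (adjusted p up to 0.19), and that of miR-154b-5p ended in 17 of 30 alternatives.

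Rises in the region were found in the miR-376 group, which is known to be edited in many tissues, and in miR-369. miR-376c-3p averaged 175 ± 137 units (SD, n = 3) at F91 and read 909, 787 and 1139 at F140 (2.68 ± 0.55, adjusted p = 0.014, and 0.023 after removal of the GC trend). miR-376b-3p read 0, 14 and 1 units against 86, 102 and 39, at least 2.19-fold more (adjusted p = 0.026), and miR-369-3p 50, 5 and 22 units against 260, 117 and 267 (3.50 ± 0.76, adjusted p = 0.019). After removal of the GC trend the last 2 missed the threshold (adjusted p = 0.057 and 0.13). None of the 3 calls held without F140 replicate 1 (adjusted p up to 0.11). miR-376e-3p and miR-411a-5p read higher by 2.16 ± 0.65 and 3.38 ± 1.10 and did not pass (adjusted p = 0.075 and 0.10).

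Other bright miRNA of the region lay lower at F140 without a call on the deposited values. miR-380-3p read 523, 607 and 525 units at F91 and 215, 205 and 213 at F140, with no overlap (-1.38 ± 0.39, adjusted p = 0.055, and 0.020 after removal of the GC trend). miR-329a-3p, miR-329b-3p and miR-411a-3p changed by -1.06, -1.12 and -1.0 (adjusted p = 0.086, 0.066 and 0.13), and all 3 were called lower after removal of the GC trend (adjusted p = 0.012 to 0.034). miR-381-5p had the largest fitted fall, -4.75 ± 2.61, but its F140 arrays ran from 0 to 805 units and it did not pass (adjusted p = 0.41). Whether the changes differ along the region was not tested.

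**Figure D4:**
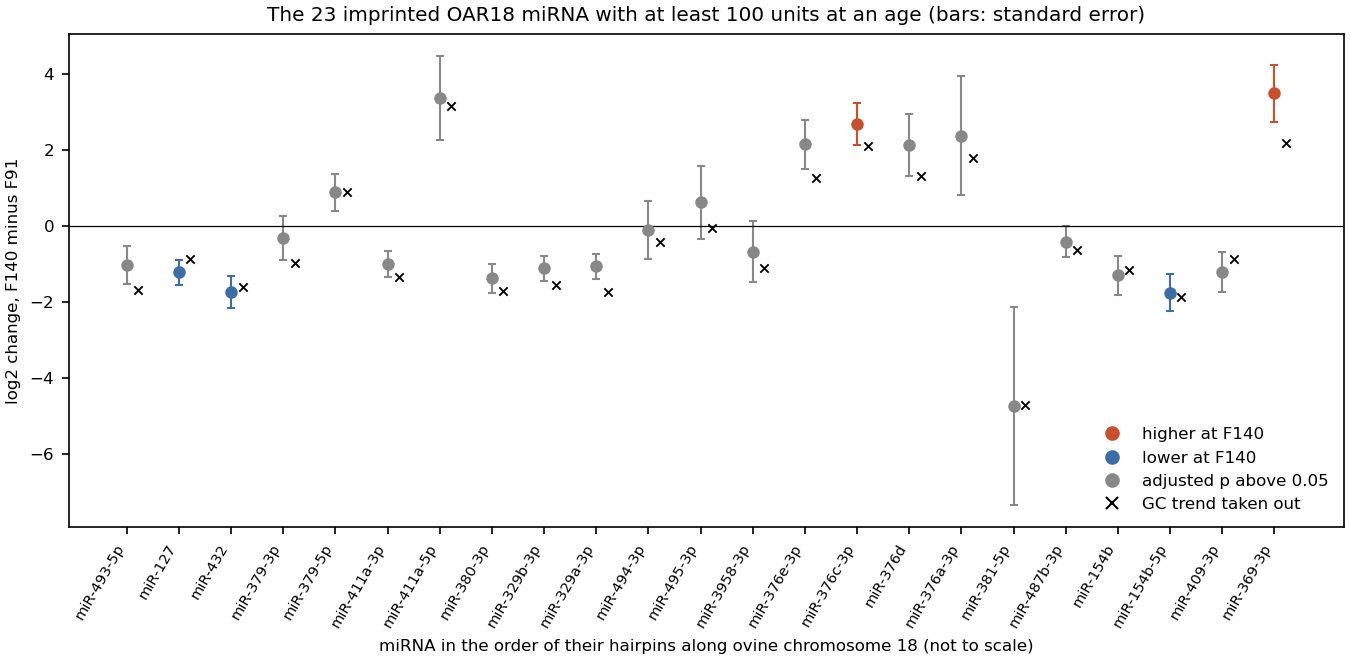
Fitted log2 change from F91 to F140 (points, with bars of 1 standard error) of the 23 miRNA of the imprinted region with at least 100 units at an age, in the order of their hairpins along the chromosome, with crosses for the fit after removal of the GC trend. The 3 called lower and the 2 called higher are coloured, and 15 of the 23 points lie below 0.

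The let-7 family, which is known to rise as cells differentiate, gave no call on the deposited values. let-7a read 13876, 15775 and 10251 units at F91 and 8505, 10474 and 9272 at F140 (-0.48 ± 0.23, adjusted p = 0.33). Once the GC trend was removed let-7a and let-7c were called lower (adjusted p = 0.014 and 0.032). let-7g and let-7i read higher by 1.47 ± 0.58 and 1.11 ± 0.45 and did not pass (adjusted p = 0.19 and 0.20). The median change of the 9 was -0.34. None of 6 miR-30 miRNA, which are abundant in heart muscle, was called either, with changes of -0.44 to 0.89 and a median of 0.10, nor any of 9 miR-378 miRNA, coded in a gene of energy metabolism, with changes of 0.11 to 0.58 and a median of 0.36.

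Probes for the same miRNA from several species and lengths mostly gave the same direction. All 6 miR-499 probes with at least 100 units were called higher, by 3.45 to 3.83 in log2, as were 6 of 9 for miR-21 and 5 of 6 for miR-451. All 3 such miR-15b probes and 7 of 10 such miR-320 probes were called lower. Allowing 2 edits between neighbours, the 171 called probes formed 79 groups of like sequence, of which 54 held rises only, 24 falls only and 1 both. That group joined miR-15a with miR-15b. Of the 79 groups 43 were a single probe, which cannot hold both directions, and probes without a call did not enter the groups. The 171 calls are far from 171 separate miRNA.

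Some called probes were not plainly miRNA. Of 20 probes for miR-7641, an entry listed among those overlapping other small RNA, 8 were called higher, and 8 after removal of the GC trend. Of 28 entries overlapping other small RNA, with each name represented once, 1 rose and none fell, against 4.75 % and 2.57 % of all names. Their median change was 0.35, and 4 rose after removal of the GC trend. Among 907 anonymous probes, which carry predicted sequences with no miRNA name, 6 (0.662 %) were higher and 4 (0.441 %) lower, against 3.85 % and 1.68 % of all probes. A single one of these is given here, chosen after its values were seen. PC-5p-51320_64 read 16106, 27781 and 43732 units at F91 and 2400, 4917 and 9233 at F140 (-2.50 ± 0.44, adjusted p = 0.0075), with no overlap between the ages.

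The dependence on base composition ran through the bright probes. Below 35 % GC, 17 of 46 probes were called higher and none lower, with a median log2 change of 2.20. From 35 to 45 % it was 28 higher and 6 lower of 204, from 45 to 55 % 17 higher and 24 lower of 317, and from 55 % upward 6 higher and 15 lower, with medians of 0.38, 0.05 and -0.29. With the trend taken out the medians of the 4 groups were 1.36, -0.02, 0.10 and 0.39. Targets with the fewest G and C still had the highest median. The 12 largest rises had a GC content of 26.1 to 45.5 % and the 12 largest falls of 38.1 to 59.1 %.

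**Figure D5:**
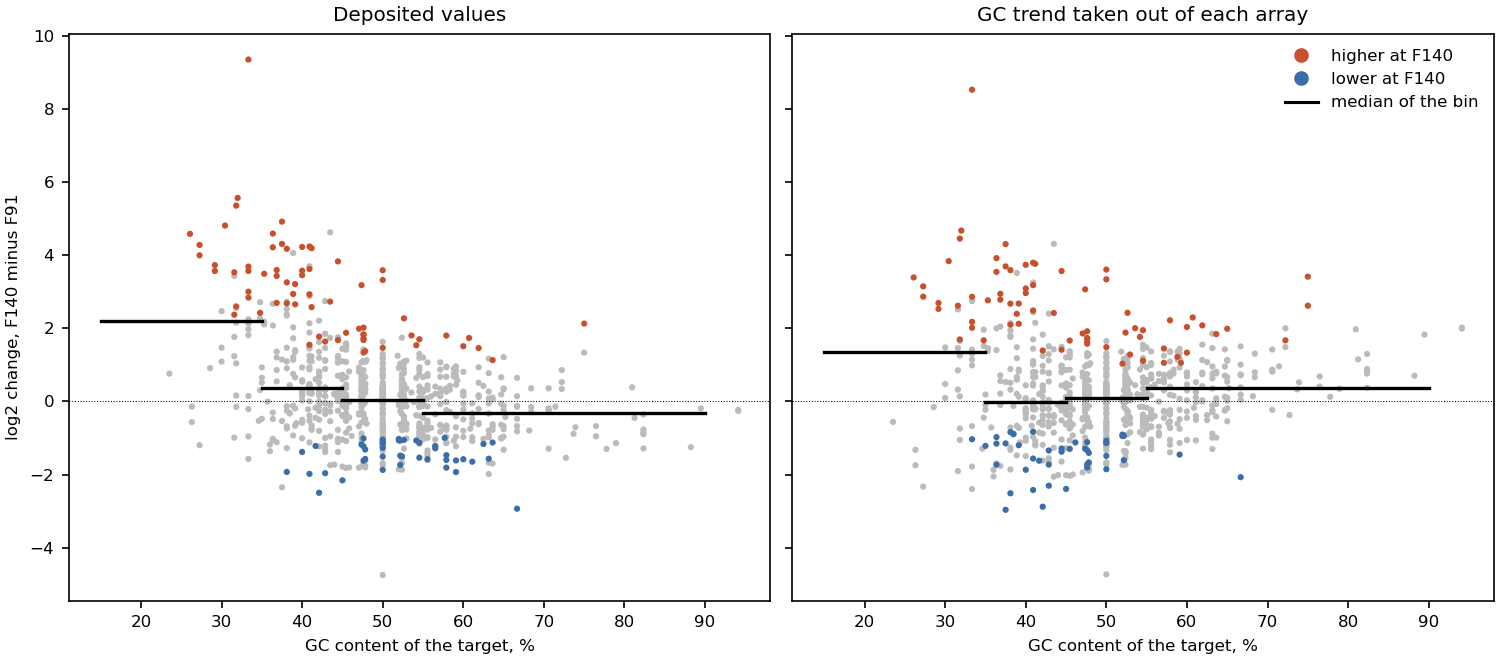
Log2 change from F91 to F140 of the 775 bright probes against the GC content of their target in percent, for the deposited values (left) and with the linear GC trend taken out of each array (right); coloured points were called in the fit shown. The black line is the median of each of 4 groups by GC content, which falls from 2.20 to -0.29 on the left and runs from 1.36 to 0.39 on the right.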

How the data were processed

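The authors hybridised left ventricular RNA to a custom single-colour (Cy3) array (LC Sciences) with 3 to 6 spots per probe. The values used are the score of each probe in the deposited table, a normalised level rounded to whole numbers, background corrected and, as the table names it, lowess normalised between arrays by the authors, whereas the paper's methods credit the CLCBIO Genomics Workbench. The deposited intensity of each probe with decimals and the scanner intensity of each spot served for alternatives. The 3091 non-control probes were all tested. 7 further probes were not analysed here. The log2(units + 0.1) values of 12 arrays were fitted by age in R 4.3.3 with the functions lmFit and eBayes (variance trend) of limma 3.58.1, with the contrast F140 minus F91 and Benjamini-Hochberg adjustment over 3091 probes. Tables were handled in Python 3.11.15 (numpy 2.4.6, pandas 2.3.3, scipy 1.17.1, matplotlib 3.10.9). Where all 3 arrays of an age read under 32 units, the fold is the geometric mean of the brighter age over 32 units, given as at least that fold. A standard error follows each log2 change. The files carry no detection calls, slide or scan date. With 3 arrays per age, precision is limited by their number.

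A miRNA name stands for a single probe: exact ovine before exact bovine, then other exact entries and variants. Named were the 12 largest rises and falls past the test that reached 100 units at an age without overlapping arrays, called members of the lists, up to 4 other members of each main list, and miRNA the study discusses. The members and lists were chosen with earlier results of these data known. The GC trend is a straight line per array, fitted to the bright probes (mean of 100 units or more). It was fitted to the log2 deviation of each probe from its mean over all 12 arrays. The replicate numbers were checked for pairing. Deviations from the age mean correlated at 0.211, 0.141 and 0.282 between same-numbered F91 and F140 arrays over all probes. Over the bright ones the correlations were 0.513, 0.495 and 0.511. All were above 0.1, so the number was entered as a block, but only in alternatives. The main fit, which gave the calls, held no block. The labels do not say what the number marks. Nothing in the labels ties fetuses to mothers. The fit was tested on simulated data with known changes. Alternatives covered the pseudocount, low values, normalisation, background correction, the variance model, the block, GC content and leaving out arrays.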

Additional observations from a re-analysis of the deposited data

How the results depend on the processing

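The count of 171 called probes (119 higher and 52 lower) stayed within 1.5 times under other pseudocounts, median scaling, the deposited intensities, a filter on dim probes, robust variance and the GC trend taken out. It moved to 294 with the replicate block over all arrays, to 286 with block and GC trend, to 9 (7 higher and 2 lower) with the 2 fetal ages alone, to 0 with those and the replicate block (531 at an unadjusted p of at most 0.05), to 93 with the GC trend also taken out, to 37 (31 and 6) without the variance trend, to 109 (58 and 51) with unmoderated variance, and to 63 with 3 arrays left out at once (F91 replicates 1 and 3, P173 replicate 2), where the lone F91 array is assumed to vary like the others. The cause of these moves was not tested. Without 1 fetal array at a time it ran from 50 to 304. Higher probes made up 69.6 % of the calls, but 54.6 % with values under 32 set to 32 (77 higher and 64 lower), 54.1 % after quantile normalisation (100 and 85, with the median of all probes at -0.14) and 53.2 % with unmoderated variance. Over 56 called miRNA named in the text and 30 alternatives, the call was kept in 1222 cases and lost in 456, and none was reversed, with 2 cases not tested under the filter; the block over all arrays ended none of them. A slide block was not run, since no slide is given.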
